A study of Mus musculus with 4 samples.

Results

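Immune cells caught in the act of dividing were picked out of mouse colon tumours by their transcripts. Members were chosen by their UMI counts: a barcode, the tag of a captured droplet, was taken when it held at least 1 UMI (a tag that marks a single captured RNA molecule) of Ptprc, of Mki67 and of Top2a, and none of Epcam. Ptprc encodes CD45, the phosphatase on the surface of nucleated blood cells. Mki67 encodes the Ki-67 protein that coats mitotic chromosomes, Top2a the topoisomerase that untangles replicated DNA, and Epcam an adhesion protein of epithelial cells. Of 14198 barcodes that passed the filters (at least 500 UMIs and 200 genes, at most 20% mitochondrial UMIs), 10401 held Ptprc without Epcam. Of these, 326 were dividing by this rule, or 3.13% (95% exact binomial interval 2.81 to 3.49%), and 8867 held neither Mki67 nor Top2a and are called non-dividing. The remaining 1208 held one of both genes. All intervals given here cover counting error only.

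The tumours were grown in female C57BL/6 mice with the carcinogen azoxymethane (AOM, 12.5 mg/kg) followed by 3 cycles of 5 days on dextran sulphate sodium (DSS), a colitis agent, at 2.5% in the opening pair of cycles and 2% in the last. They were taken 30 days after the last cycle, digested, and sorted on CD45 and EPCAM antibodies. The labels name 4 samples, 1 in each group: CD45+ cells and CD45- cells from EgfrΔMYL mice, in which the growth factor receptor Egfr is deleted in the myeloid lineage, and the same sorts from Egfr fl/fl mice. All groups share the strain, the sex and the AOM/DSS treatment, and the labels give neither the Cre driver nor the number or age of the animals. The deposited matrix joins barcodes of 4 libraries, marked by suffixes 1 to 4, and no source used here says which sample a suffix stands for. Genotypes and sorts were therefore not compared, there are no replicates, and no p-value was computed.

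A cell that commits to division passes through G1, copies its DNA in S phase, and separates the copies in mitosis. The E2F transcription factors switch on replication genes at the G1/S transition, while the DREAM and MuvB complexes act on mitotic genes through CHR and CCAAT promoter elements. Ki-67 and topoisomerase II alpha accumulate from S phase to mitosis, so their transcripts mark the late part of the cycle better than its start. In the gut wall, macrophages are replenished largely by blood monocytes, T cells expand after meeting antigen, and B cells divide in germinal centres, the follicle regions where antibody genes are mutated. Neutrophils and plasma cells are mostly end stages that no longer divide.

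The dividing barcodes came almost wholly from libraries 3 and 4. Library 4 held 222 of 6209 Ptprc-positive, Epcam-negative barcodes (3.58%, 3.13 to 4.07%) and library 3 held 103 of 3883 (2.65%, 2.17 to 3.21%). Library 2 held 1 of 216, and library 1 held 0 of 93, where a count of 0 allows up to 3.23%. Limits for a count of 0 are set here at 3 counts of the total, which is below the upper end of the exact interval (3.89% for library 1). Dividing barcodes had a median of 19006.5 UMIs (1610 to 72322) and 4072 genes, against 4634 UMIs (500 to 57716) and 1531 genes in non-dividing ones. Mitochondrial shares had medians of 2.79% in dividing and 2.38% in non-dividing barcodes. Ptprc itself had a median of 13 UMIs in dividing and 5 in non-dividing barcodes, but its summed level was 678 and 1007 CPM (counts scaled to the total UMIs of a group). No dividing barcode shared its sequence with a kept barcode of another library, while 28 of all kept barcodes did. The rule needs RNA of 3 genes to be seen, so deep barcodes pass it more readily, and the shares of lineage genes and classes are also given after each barcode was thinned to 2000 randomly drawn UMIs. Shares of gene carriers after thinning keep the groups as set on all UMIs, so the selection of deep barcodes stays in them.

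Near the threshold, membership rested on few molecules. Mki67 had a median of 5 UMIs (1 to 55) and Top2a a median of 5 (1 to 83), and 46 of the 326 held exactly 1 of each. The summed level of 44 replication genes was 614 CPM in those 46, against 3195 CPM in the 140 members with at least 5 UMIs of both genes. For 82 mitotic genes the same strata stood at 693 and 10395 CPM. Just outside the threshold, 751 barcodes with Mki67 alone had 466 CPM of replication genes and 712 CPM of mitotic genes, and 457 with Top2a alone had 855 and 781 CPM. Non-dividing barcodes had 433 and 563 CPM. The barcodes with single molecules of both genes thus lay close to those just outside.

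Promoters show which elements sit at the start of the genes that define and accompany the members. The 250 bases before the start are printed for Top2a and Mki67, which chose the members, for Cdk1, the kinase that drives entry into mitosis, and for Mcm6, a subunit of the replicative helicase. Sequences are from RefSeq on GRCm38.p6, all on the minus strand and read 5′ to 3′. They are chr11:99024190-99024439 for Top2a, chr7:135716380-135716629 for Mki67, chr10:69352913-69353162 for Cdk1 and chr1:128359706-128359955 for Mcm6. Capitals mark matches on either strand to the CHR (TTTGAA), the CCAAT box (CCAAT) or an E2F site (TTTGGCGC, TTTCCCGC, TTTGCCGC or TTTCGCGC). Where E2F matches overlap, they form one run of capitals.
Top2a: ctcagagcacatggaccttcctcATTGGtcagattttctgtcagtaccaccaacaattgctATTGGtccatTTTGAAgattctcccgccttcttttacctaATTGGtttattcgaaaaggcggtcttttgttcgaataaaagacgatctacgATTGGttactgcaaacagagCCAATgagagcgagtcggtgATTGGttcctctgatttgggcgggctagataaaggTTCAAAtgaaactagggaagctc
Mki67: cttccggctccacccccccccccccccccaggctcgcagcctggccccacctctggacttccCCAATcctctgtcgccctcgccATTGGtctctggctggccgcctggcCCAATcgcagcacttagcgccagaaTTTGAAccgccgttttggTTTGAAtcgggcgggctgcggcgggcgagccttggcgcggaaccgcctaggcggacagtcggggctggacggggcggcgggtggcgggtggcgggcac
Cdk1: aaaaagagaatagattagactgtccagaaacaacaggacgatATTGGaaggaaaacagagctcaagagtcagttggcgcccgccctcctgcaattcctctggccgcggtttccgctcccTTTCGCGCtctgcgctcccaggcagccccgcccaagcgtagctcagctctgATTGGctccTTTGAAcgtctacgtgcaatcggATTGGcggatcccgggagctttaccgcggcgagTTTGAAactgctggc
Mcm6: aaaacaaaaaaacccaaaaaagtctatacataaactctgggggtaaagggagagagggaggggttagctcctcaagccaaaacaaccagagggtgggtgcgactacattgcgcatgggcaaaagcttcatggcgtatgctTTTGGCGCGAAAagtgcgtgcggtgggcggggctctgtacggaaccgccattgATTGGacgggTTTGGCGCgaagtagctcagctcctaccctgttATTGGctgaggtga
The Top2a promoter held 6 CCAAT boxes and 2 CHR matches, the nearer CHR 23 bases before the start. Mki67 held 3 CCAAT boxes and 2 CHR matches. Cdk1 held 3 CCAAT boxes, 2 CHR matches and 1 E2F match, and Mcm6 held 3 E2F matches and 2 CCAAT boxes with no CHR match in these letters.

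The same search ran over 300-base windows, from 250 bases before to 50 after the start. Among 83 promoters of 75 matched mitotic genes (of 87 listed), 56.6% held a CHR match, against 17.9% of all 32851 promoters. In 41 promoters of 35 matched replication genes (of 44 listed) the share was 19.5%. E2F matches ran the other way, in 6.02% of mitotic and 36.6% of replication promoters, against 2.26% of all. A CCAAT box stood in 74.7% of mitotic and 53.7% of replication promoters, against 37.4% of all, and both CCAAT and CHR stood in 47.0%, 7.32% and 6.95%. A letter match describes the sequence and shows no binding.

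Most replication and mitotic genes were higher in the summed counts of the members, beside the genes that picked them. Levels were compared as the log2 ratio of summed CPM, dividing over non-dividing, for 9489 genes with a mean of at least 5 CPM over both groups. Of all these genes 10.9% were at least 2-fold higher and 6.04% at least 2-fold lower in dividing barcodes, and the median log2 ratio was 0.22. The cell cycle lists move with the genes of the rule, so their counts are a description. In the licensing list, which covers the complexes that load the helicase onto DNA before replication, 19 of 19 genes that passed the filter (of 20) were higher, with a median of 3.12. All 24 polymerase and replication fork genes were higher (median 2.31), as were 17 of 18 nucleotide supply genes (1.67) and all 15 chromatin assembly and high mobility group genes (2.34). Mcm5, a helicase subunit, stood at 93.2 CPM in dividing and 7.46 CPM in non-dividing barcodes, a log2 ratio of 3.64 (95% interval 3.47 to 3.82). Mcm6 stood at 109.7 and 14.7 CPM (2.90), and Pcna, the sliding clamp of the polymerase, at 105 and 22.3 CPM (2.23). Rrm2, the subunit of ribonucleotide reductase that limits deoxynucleotide supply, stood at 132 and 1.13 CPM (6.87). Pclaf, a clamp-binding factor, stood at 415 and 2.02 CPM (7.68).

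Mitotic genes stood further apart than replication genes. Of the cyclins, kinases and anaphase-promoting complex genes 28 of 29 were higher (median 5.49), with all 25 kinetochore and centromere genes (5.11) and all 33 spindle, kinesin and cytokinesis genes (5.43). Hmmr, which helps assemble the spindle, stood at 104 CPM in dividing and 0.269 CPM in non-dividing barcodes (8.60, 7.89 to 9.41) and was seen in 147 of 326 and 14 of 8867 barcodes. Ccnb1, the cyclin partner of Cdk1 in mitosis, stood at 71.6 and 0.438 CPM (7.35), Cdk1 at 126 and 2.21 CPM (5.83), and Birc5, a subunit of the chromosomal passenger complex, at 271 and 2.31 CPM (6.88). In library 3 alone the Ccnb1 ratio was 7.49 and in library 4 alone 7.36. The exception was Pttg1, the securin that restrains chromatid separation, at 42.3 and 51.8 CPM (-0.29). Of 17 replication-dependent histone genes that passed the filter (of 21), 15 were higher (2.81). These transcripts mostly lack the poly(A) tail that the assay captures, and near-identical copies can share reads, so single histone genes are uncertain. Condensin and cohesin genes (13 of 15 higher, 2.30) and DNA repair and checkpoint genes (19 of 23, 2.20) stood lower than the mitotic lists but far above the median of all genes.

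G1 regulators did not all move alike. Of 19 that passed the filter, 13 were higher (median 1.72), led by E2f7 (6.85), a repressor made late in S phase, and Ccne2 (5.52), the cyclin that starts replication. The D cyclins, which answer to growth signals in early G1, were not: Ccnd1 had a log2 ratio of 0.73, Ccnd2 of -0.43 and Ccnd3 of -0.19, and Myc had -0.25. Of 17 quiescence genes and inhibitors, 7 were lower and 1 was higher (median -0.71). Klf2, a factor that keeps lymphocytes quiescent, stood at 104 CPM in dividing and 412 CPM in non-dividing barcodes (-1.98), Btg1, which restrains proliferation, at 649 and 1769 CPM (-1.45), and Cdkn1a, the p53-induced inhibitor p21, at 136 and 376 CPM (-1.47). The higher one was Cdkn2c, the inhibitor p18, at 40.8 and 5.98 CPM (2.77).

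The balance of replication and mitotic genes was also described member by member. Per barcode the 44 replication genes gave a median of 40.5 UMIs (0 to 239) and the 82 mitotic genes 64.5 UMIs (0 to 876). Mitotic UMIs outnumbered replication UMIs in 223 members (68.4%) and the reverse held in 91. The mitotic share of both had a median of 68.5%, with 29.9% at the 10th and 91.9% at the 90th percentile. The members thus differed widely in this share, but some held few UMIs of both sets, where counting error alone widens it. The median share was 71.7% in monocyte/macrophage-like, 64.6% in T-like and 72.0% in B-like members, as defined below. The sets differ in gene number and level, so a share above 50% is not a phase call.

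**Figure D1:**
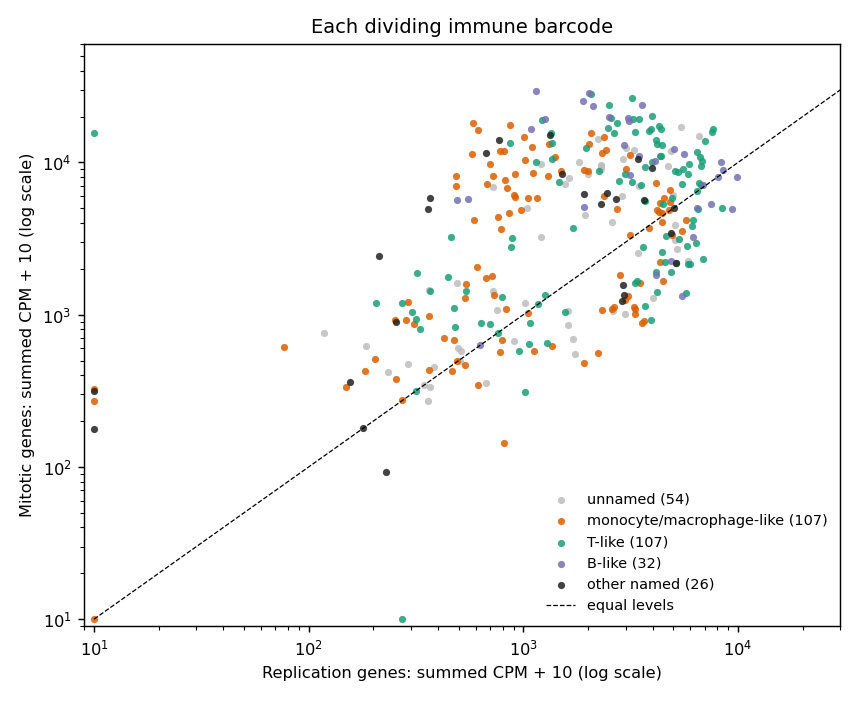
Each point is 1 dividing barcode, placed by the summed CPM of 44 replication genes (horizontal axis) and of 82 mitotic genes (vertical axis), both on log scales after adding 10 CPM and coloured by marker class, with a dashed line of equal levels. The classes overlap over much of the range, and 223 of 326 points lie above the line. B-like points, with at least 4 UMIs of each set, do not reach the lowest levels. Monocyte/macrophage-like and T-like points do, with counts down to 0 on both axes.

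Across 9265 Ptprc-positive barcodes thinned to 2000 UMIs, the genes detected most like Mki67 were Top2a (Pearson r 0.48), the microtubule destabiliser Stmn1 (0.42) and the spindle motor Kif11 (0.41). Those most like Top2a were Stmn1 (0.52), Mki67 (0.48) and Pclaf (0.47). The values come from log counts over pooled barcodes that share libraries and are given as a description. Stmn1 stood at 708 CPM in dividing and 14.1 CPM in non-dividing barcodes (5.65).

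Growth genes moved less than the cycle genes, and not in step with each other. Of 18 ribosome biogenesis genes 10 were higher (median 1.08), among them Ncl, the nucleolar protein nucleolin, at 635 CPM in dividing and 287 CPM in non-dividing barcodes (1.15). The serine synthesis enzymes Psat1 (2.76), Phgdh (2.18) and Psph (1.28) were higher, and the cystine transporter Slc7a11 lower (-1.80), among 9 amino acid genes. No oxidative phosphorylation gene of 14 passed 2-fold in either direction, with a median of 0.81. Of 14 glycolysis genes none was higher and 2 were lower (median 0.04). Tfrc, the transferrin receptor that brings in iron, stood at 24.0 and 10.1 CPM (1.24).

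The 7 lineage genes showed members of several lineages. C1qa, a complement subunit made by macrophages, was carried by 51.5% of dividing barcodes (46.0 to 57.1%) and 22.2% of non-dividing ones, or 43.2% and 18.1% after thinning to 2000 UMIs. Thinned to 5000 UMIs, which leaves out all shallower barcodes, the shares were 45.5% and 29.8%, a smaller gap. The summed C1qa level was 2966 CPM in dividing and 1358 CPM in non-dividing barcodes. In library 3 the carriers were 40.8% of dividing and 15.7% of non-dividing barcodes, and in library 4 56.8% and 27.8%. Lyz2, the lysozyme of macrophages and neutrophils, was carried by 59.5% and 49.6%, but by 44.1% and 42.7% after thinning, and its level was 4585 and 4138 CPM. Both genes together, at 2 or more UMIs each, were seen in 133 dividing barcodes (40.8%) and in 13.5% of non-dividing ones.

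Of the lymphoid genes, Cd3e, a chain of the T cell receptor complex, was carried by 35.6% of dividing and 22.4% of non-dividing barcodes (23.5% and 18.3% thinned), at 142 and 124 CPM. Cd79a, the signalling chain of the B cell receptor, was carried by 19.0% and 18.4% (14.5% and 17.9% thinned), at 152 and 297 CPM. Thinned to 5000 UMIs, which leaves out all shallower barcodes, its shares were 17.3% and 11.6%, so their order turned with the depth chosen. The Cd79a share depended on the library more than on division, with 39.8% of dividing and 33.1% of non-dividing barcodes in library 3 and 9.46% and 9.49% in library 4.

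Jchain, Flt3 and Siglech are the other lineage genes. Jchain, which joins secreted antibody into polymers, was carried by 80.4% of dividing and 56.3% of non-dividing barcodes, but by 28.1% and 30.3% after thinning, and its level was 1512 and 1685 CPM. Single Jchain molecules were widespread: 74.8% of dividing T-like and 80.4% of dividing monocyte/macrophage-like barcodes, which should not make it, held at least 1 (median depths 13208 and 25123 UMIs). A single Jchain UMI is therefore not read as a sign of lineage, and the source of these molecules was not tested. Dividing B-like barcodes held more, with a median of 11.5 Jchain UMIs (934 CPM), against 0 (198 CPM) in non-dividing ones. Of all Jchain UMIs of the dividing group, 1 barcode held 21.7%. Flt3, the growth factor receptor of dendritic cells and their precursors, was carried by 14.7% and 5.13% (4.01% and 1.77% thinned), at 21.2 and 17.2 CPM. Its 48 dividing carriers were not mainly dendritic: 6 were conventional dendritic-like and 11 were B-like. Flt3 was in 34.4% of dividing and 2.95% of non-dividing B-like barcodes as counted, at median depths of 15152.5 and 4093 UMIs. Siglech, a surface lectin of plasmacytoid dendritic cells, was seen in 2 dividing barcodes (0.613%) and in 1.38% of non-dividing ones, at 0.284 and 26.9 CPM. After thinning, Siglech was in 0 of 324 dividing barcodes, which allows up to 0.926% of barcodes with a UMI by 3 counts and 1.13% by the exact interval. It was in 1.22% of thinned non-dividing barcodes.

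**Figure D2:**
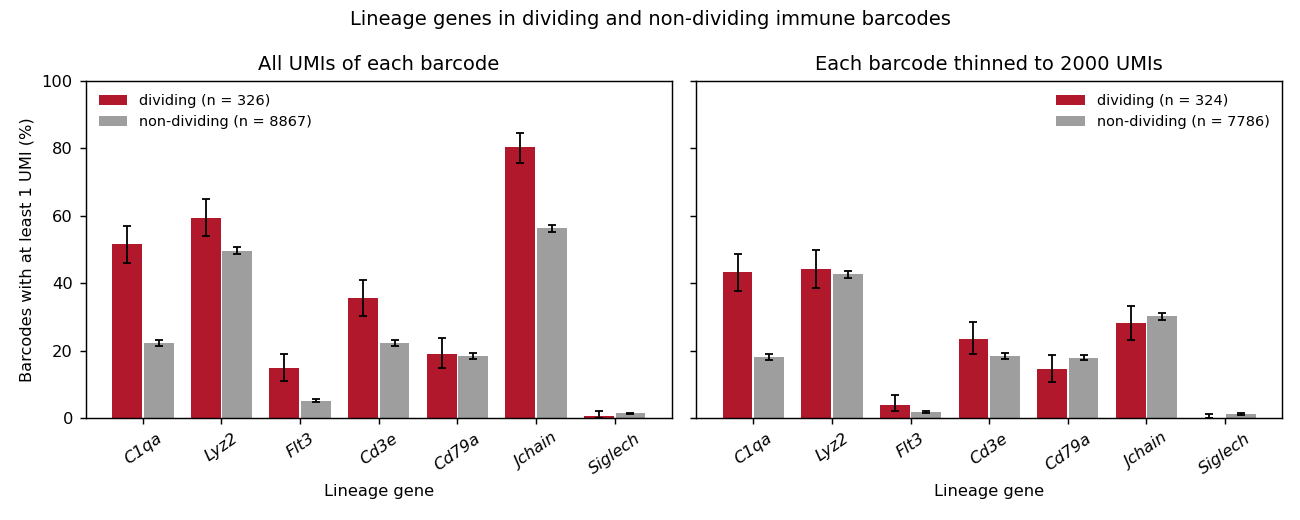
Percent of dividing and non-dividing barcodes with at least 1 UMI of each lineage gene, with exact 95% binomial intervals, as counted and after thinning to 2000 UMIs. C1qa stays apart after thinning (43.2% of dividing, 18.1% of non-dividing), while Lyz2 (44.1% and 42.7%) and Jchain (28.1% and 30.3%) come together. The groups were set on all UMIs throughout, so the selection of deep barcodes by the rule remains after thinning.

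Some pairs of genes from different lineages were seen together. With 2 or more UMIs of each, C1qa and Cd3e met in 1 dividing barcode (0.307%, against 0.406% of non-dividing ones) and Cd3e and Cd79a in 2 (0.613% and 0.248%). C1qa and Cd79a met in 5 (1.53% and 0.350%), Cd3e and Lyz2 in 10 (3.07% and 0.947%), and Flt3 and Lyz2 in 12 (3.68% and 0.778%). Cd79a and Flt3 met in 7 (2.15% and 0.10%). Pairs with Jchain were more common, with Lyz2 in 83 dividing barcodes (25.5% and 12.1%), with C1qa in 72 (22.1% and 5.63%) and with Cd3e in 39 (11.96% and 4.38%). These pairs were not counted in thinned barcodes. The doublet caller marked too few barcodes to have worked, so none was removed from the main results. Removing the barcodes with the highest doublet scores, as an alternative, took 34 of 326 dividing and 370 of 8867 non-dividing barcodes. The pairs were not recounted without them, and the part of doublets in the pairs was not tested.

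Each barcode was then given a class from 13 marker panels, named with "-like", when 1 panel led the others clearly (a lead of at least 15 percentage points in the share of its genes detected). The members split into 107 monocyte/macrophage-like (32.8%), 107 T-like (32.8%), 32 B-like (9.82%), 9 plasma-like, 6 conventional dendritic-like, 6 neutrophil-like and 5 mast and basophil-like barcodes, and 54 stayed unnamed (16.6%). Of the unnamed, 21 had monocyte/macrophage and neutrophil panels in the lead together, 10 the dendritic panel ahead of plasma and 2 the reverse, and 5 the B panel ahead of plasma. C1qa, Cd3e and Cd79a belong to the panels that set the classes, so their presence there describes the classes and supports nothing. C1qa was in 107 of 107 dividing monocyte/macrophage-like barcodes (median 138 UMIs), Cd3e in 105 of 107 T-like and Cd79a in 32 of 32 B-like ones. The mix differed between libraries, with 21 monocyte/macrophage-like, 32 T-like and 26 B-like members in library 3, and 86, 74 and 6 in library 4.

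The share of each class that was dividing depended on depth. As counted, 6.49% of monocyte/macrophage-like (5.35 to 7.79%), 4.52% of T-like (3.72 to 5.44%) and 2.29% of B-like barcodes were dividing. Thinned to 2000 UMIs with the rule applied to the thinned counts, the shares were 1.65% (1.08 to 2.40%), 2.35% (1.77 to 3.07%) and 1.05%. Thinned to 5000 UMIs, which leaves out all shallower barcodes, they were 3.19%, 5.53% and 8.67%. The order of these classes thus turned with the depth chosen, and no order is read from it. Dividing monocyte/macrophage-like barcodes had a median of 25123 UMIs, against 11541 in non-dividing ones. For T-like barcodes the medians were 13208 and 4868.5 UMIs, and for B-like ones 15152.5 and 4093.

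Neutrophil-like barcodes were the largest class of all and seldom divided. Only 6 of 2421 met the rule (0.248%), or 0.103% after thinning to 2000 UMIs. These 6 held 1 to 138 mitotic and 0 to 60 replication UMIs, so some held almost no cycle RNA. Over all members the neutrophil markers, such as S100a8, a calcium-binding protein that fills their cytoplasm, were lower in 10 of 10 (median -2.71). Of all genes 6.04% were. Neutrophil-like barcodes made up 1.84% of the dividing and 26.3% of the non-dividing group, and this mix is part of these ratios. S100a8 stood at 1303 CPM in dividing and 10418 CPM in non-dividing barcodes. Granule precursor genes were near 0: Ngp, a granule protein of maturing neutrophils, stood at 0.284 and 115 CPM (-8.66), and Camp, an antimicrobial granule peptide, had 0 UMIs in dividing barcodes, against 36.9 CPM, a log2 ratio of at most -6.44. Elane and Mpo, the granule enzymes of the promyelocyte, had 0 UMIs in the members and 7 and 6 UMIs in non-dividing barcodes. Dividing neutrophil-like barcodes had a median of 9063 UMIs and non-dividing ones of 3095.

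Among the small classes, 9 of 178 plasma-like barcodes (5.06%), 6 of 167 conventional dendritic-like (3.59%) and 5 of 57 mast and basophil-like barcodes (8.77%) were dividing. Thinned to 2000 UMIs the shares were 2.50, 1.20 and 4.35%. Mitotic UMIs ran from 3 to 490 in plasma-like, 12 to 113 in dendritic-like and 40 to 240 in mast and basophil-like members. The plasma-like member with 3 held 36344 UMIs in all, so not every member held much cycle RNA. No member was plasmacytoid dendritic-like (0 of 100, which allows up to 3% by 3 counts and 3.62% by the exact interval) or NK and innate lymphoid-like (0 of 60, up to 5% and 5.96%). Of the dividing plasma-like barcodes 7 of 9 held at least 100 Jchain UMIs (median 940), against 49 of 130 non-dividing ones (median 3.5). Median depths were 31251 and 12124 UMIs. Lyz2 was seen in 44.4% of dividing and 51.5% of non-dividing plasma-like barcodes, and Cd79a in 77.8% and 41.5%. The class name is therefore uncertain for many of the non-dividing barcodes, and so is the dividing share of this class. All 6 dividing dendritic-like barcodes held Flt3, as did 118 of 134 non-dividing ones (88.1%). Jchain and Flt3 belong to the panels that set these classes, so both counts describe the classes and support nothing.

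Over all members, 2 dendritic markers were higher and 5 lower of 12, against 10.9% and 6.04% of all genes. Xcr1, the chemokine receptor of type 1 conventional dendritic cells, stood at 29.4 CPM in dividing and 7.61 CPM in non-dividing barcodes (1.95). Clec9a, a lectin of the same subset, stood at 10.1 and 6.10 CPM (0.73), in 0.617% and 0.681% of barcodes after thinning. Markers of mature migrating dendritic cells were lower, with Ccr7, the lymph node homing receptor, at 51.6 and 204 CPM (-1.98) and Fscn1, an actin bundler, at 4.12 and 51.7 CPM (-3.65). Ccr7 is also a gene of naive lymphocytes. Of 9 mast and basophil markers 6 were higher (1.71), against 10.9% of all genes, with medians of 3.57 in library 3 and 0.73 in library 4. But Mcpt1, a mast cell protease at 912 and 193 CPM, had 31.6% of its dividing UMIs in 1 barcode. After thinning it was seen in 3.09% of dividing and 5.82% of non-dividing barcodes.

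**Figure D3:**
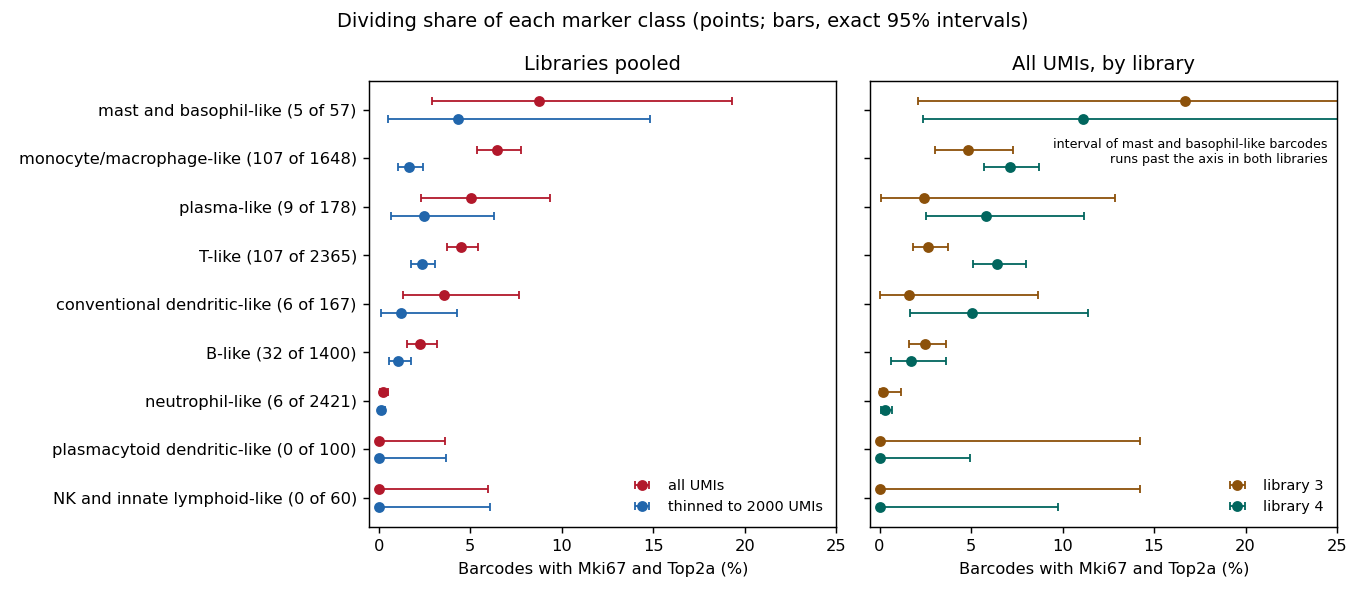
Percent of the Ptprc-positive, Epcam-negative barcodes of each marker class that were dividing (points, with exact 95% binomial intervals), on the left pooled as counted and after thinning to 2000 UMIs, on the right in libraries 3 and 4 alone. The interval of mast and basophil-like barcodes runs past the axis in both libraries. Among classes with any member, neutrophil-like barcodes had the lowest pooled share (0.248% as counted), and T-like barcodes stood at 2.67% in library 3 and 6.43% in library 4.

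The mix of classes is part of every ratio over all members, so genes were also compared within a class. Within the monocyte/macrophage-like class 6.25% of 9053 genes were at least 2-fold higher and 3.88% at least 2-fold lower, with a median of 0.06. Within the T-like class the figures were 11.5% and 7.47% of 9023 genes (median 0.10), and within the B-like class 20.6% and 13.4% of 8843 genes (0.18). Mitotic cyclins and kinases were higher in each, with medians of 4.74, 6.31 and 6.28. Mki67 had 308 CPM in dividing monocyte/macrophage-like, 709 CPM in T-like and 839 CPM in B-like barcodes.

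**Figure D4:**
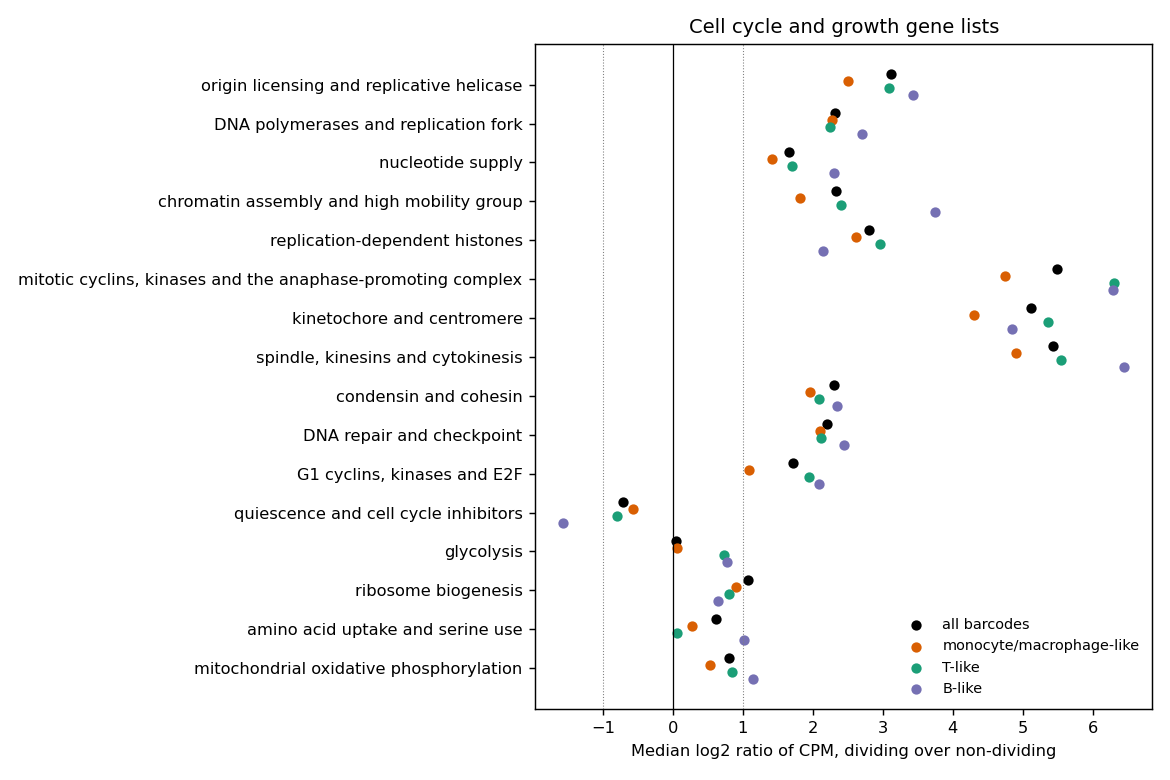
Median log2 ratio of CPM (dividing over non-dividing) of each cell cycle and growth gene list, over all barcodes (black) and within the 3 largest classes (coloured), with dotted lines at 2-fold. The mitotic lists lie furthest to the right, quiescence genes lie to the left of 0 in all 4 comparisons (-0.71 over all barcodes), and the growth lists lie near or inside 2-fold.

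Dividing monocyte/macrophage-like barcodes held little RNA of genes known from newly arrived monocytes. No gene of the monocyte and macrophage state list was at least 2-fold higher and 8 of 17 were lower, against 6.25% and 3.88% of all genes, with a median of -0.80 (-0.68 in library 3 and -0.88 in library 4). The list also holds genes of macrophage states, such as Apoe and Trem2, so this count is not one of monocyte genes alone. Ly6c2, the surface antigen of inflammatory monocytes, stood at 1.76 CPM in dividing and 104 CPM in non-dividing barcodes (-5.88, -7.51 to -4.66). It was seen in 3 of 107 and 217 of 1177 barcodes, and after thinning in 0% and 11.5%. Chil3, a chitinase-like protein of monocytes, stood at 6.33 and 189.6 CPM (-4.90) and was seen in 3 of 107 and 230 of 1177, or 0% and 11.96% after thinning. Vcan, a matrix proteoglycan of monocytes, stood at 0.352 and 26.4 CPM (-6.23). F13a1, a clotting factor subunit outside this list, stood at 2.11 and 57.2 CPM (-4.76). Ccr2, the receptor that brings monocytes out of the blood, was still common, at 125 and 257 CPM (-1.04), and seen in 47.7% and 45.1% of barcodes, or 23.6% and 25.5% after thinning. Plac8 stood at 68.3 and 822 CPM (-3.59), with 58.2% of the dividing UMIs in 1 barcode.

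The panel genes set the class in both groups, so their likeness is given as a description. C1qa stood at 5743 CPM in dividing and 4551 CPM in non-dividing barcodes (0.34), and was seen in 98.1% and 79.1% after thinning. Csf1r, the receptor for the growth factor of macrophages, had a ratio of -0.31, the lipid carrier Apoe of -0.43, Lyz2 of -0.19 and the lipid sensor Trem2 of 0.14. None of the 12 panel genes passed 2-fold, and none of 10 MHC class II genes did. Spp1, the secreted protein osteopontin, had a ratio of 0.69 that rested on 1 barcode with 42.6% of the dividing UMIs, and was -0.09 without it. Interferon-stimulated genes were lower in 7 of 13 (-1.02), among them Cxcl9, a chemokine that draws T cells, at 77.4 and 368 CPM (-2.25). Among the genes ranked outside the cycle lists (at least 50 UMIs expected), Areg, the EGFR ligand amphiregulin, had the lowest ratio. It stood at 1.41 CPM in dividing and 109 CPM in non-dividing barcodes (-6.27). But Areg was rare in both groups, seen in 3.74% and 5.78% of barcodes, or 0.943% and 3.33% after thinning. Its 1528 UMIs in non-dividing barcodes lay in 68 of them, so the ratio rests on a small part of the class.

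Neutrophil RNA moved with these differences. The 10 neutrophil markers summed to 639.7 CPM in dividing and 1598 CPM in non-dividing monocyte/macrophage-like barcodes, with medians of 4 and 3 UMIs per barcode, and of 9 that passed the filter 6 were lower and 1 was higher. The 10 granule precursor genes, which include Chil3, summed to 10.2 and 216 CPM, with Elane, Mpo, Ctsg, Fcnb, Camp and Ngp at 0 in dividing barcodes. Their part in the result was not tested.

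Egfr, the gene deleted in the myeloid lineage of the EgfrΔMYL mice, had 0 UMIs in all dividing barcodes, which allows up to 0.426 CPM, and 13 UMIs (0.219 CPM) in the non-dividing ones. No difference was detectable at this depth.

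Several genes of activated T cells were higher in dividing T-like barcodes, and several of naive and memory T cells lower. All 30 genes of the T cell state list passed the filter, 8 were higher and 6 lower, against 11.5% and 7.47% of all genes, and the median was 0.38 (0.62 in library 3 and 0.34 in library 4). Ctla4, the inhibitory receptor of activated and regulatory T cells, stood at 1157 CPM in dividing and 437 CPM in non-dividing barcodes (1.41, 1.33 to 1.48), in 57.5% and 32.5% of barcodes after thinning. Its ratio was 1.51 in library 3 and 1.17 in library 4. Gzmb, a protease of killer cells, stood at 604 and 175 CPM (1.79), in 41.5% and 11.1% after thinning. Havcr2, the checkpoint receptor TIM-3, stood at 123 and 54.5 CPM (1.17), in 21.7% and 6.19% after thinning. Il2ra, the high-affinity IL-2 receptor chain, stood at 228 and 109.6 CPM (1.06), and its ratio was 1.56 in library 3 and 0.57 in library 4. Prf1, the pore protein of killer cells, stood at 20.3 and 28.5 CPM (-0.49). NK and innate lymphoid markers moved with these genes in the sums, with their 9 genes at 359 and 170.0 CPM, 2 of 4 that passed the filter higher (Xcl1 at 1.40 and Klre1 at 1.26) and Ncr1 at 0 in dividing barcodes. Of the 601 UMIs of these markers in dividing T-like barcodes, 160 lay in 1 barcode. None was seen in 82 of 107 dividing and 1650 of 1922 non-dividing barcodes. Of 14 dissociation stress genes 7 were lower (-0.94), and the part of either list in the result was not tested.

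The genes of resting T cells were lower in both libraries. Tcf7, a factor of naive and stem-like T cells, stood at 50.1 CPM in dividing and 329.9 CPM in non-dividing barcodes (-2.72, -3.05 to -2.41), in 10.4% and 40.8% after thinning. Il7r, the receptor for the survival cytokine IL-7, stood at 129 and 513 CPM (-1.99). The Tcf7 ratio was -2.58 in library 3 and -2.48 in library 4, and that of Il7r -1.97 and -2.10.

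Dividing T-like barcodes included carriers of Cd4, the coreceptor of helper T cells, and of Cd8, that of killer T cells. Cd4 without Cd8 was seen in 57.0% of dividing (47.1 to 66.5%) and 41.7% of non-dividing T-like barcodes, Cd8a or Cd8b1 without Cd4 in 20.6% and 23.5%, and neither in 14.95% and 32.2%. These shares are as counted, at median depths of 13208 and 4868.5 UMIs, and after thinning Cd4 was seen in 25.5% and 27.6%, Cd8a in 16.0% and 14.03% and Cd8b1 in 10.4% and 18.1%. Foxp3, the factor that defines regulatory T cells, was seen in 49.5% of dividing and 16.8% of non-dividing barcodes, or 20.8% and 12.3% after thinning. Its summed level was 145 and 98.8 CPM, a log2 ratio of 0.55 that did not reach 2-fold. Cytokine ratios rested on single barcodes: Ifng, at 940.2 and 86.8 CPM (3.44), had 86.7% of its dividing UMIs in 1 barcode and a ratio of 0.54 without it. Gzma, a killer cell protease at 831 and 128 CPM (2.70), had 45.5% in 1 barcode and a ratio of 1.86 without it, and stood at 4.86 in library 3 and 0.62 in library 4. Trdc, the gamma-delta receptor constant gene, had a ratio of -2.30 with 92.1% of the UMIs in 1 barcode and -5.96 without it.

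Several glycolysis genes were higher in dividing T-like barcodes. Of 14 genes 6 were at least 2-fold higher (median 0.73), against 11.5% of all genes. In monocyte/macrophage-like barcodes 0 of 14 were (median 0.06), against 6.25% of all genes, and this difference between the classes was not tested. Tpi1, the triose isomerase, stood at 292 CPM in dividing and 114 CPM in non-dividing T-like barcodes (1.36), and Ldha, which makes lactate, at 1038 and 493 CPM (1.07). The median was 1.24 in library 3 and 0.30 in library 4.

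Dividing B-like barcodes carried genes of the germinal centre. This class holds 32 members, 26 of them in library 3, and was looked at after its values had been seen. Of 12 germinal centre genes 9 were higher and 2 lower, against 20.6% and 13.4% of all genes, with a median of 3.78 (3.79 in library 3 and 3.22 in library 4). Mef2b, a factor that activates Bcl6, stood at 342 CPM in dividing and 16.4 CPM in non-dividing barcodes (4.38, 4.02 to 4.76), and was seen in 28 of 32 and 54 of 1323 barcodes, or 62.5% and 1.99% after thinning. Rgs13, a brake on chemokine signals, stood at 366 and 20.3 CPM (4.17), and Gcsam, a germinal centre signalling adaptor, at 205 and 3.27 CPM (5.97). Bcl6, the master repressor of the germinal centre, stood at 108 and 29.0 CPM (1.90), and S1pr2, which confines B cells to the follicle, at 82.3 and 6.72 CPM (3.61).

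The genes of resting follicular B cells were lower throughout. All 10 naive and memory B genes were at least 2-fold lower (median -3.41). Ighd, the constant gene of the IgD receptor on naive B cells, stood at 31.1 CPM in dividing and 881 CPM in non-dividing barcodes (-4.82), in 8 of 32 and 1129 of 1323 barcodes, or 6.25% and 72.9% after thinning. Klf2 stood at 42.0 and 694 CPM (-4.05) and Ccr7 at 12.8 and 386 CPM (-4.92). Gpr183, the receptor that draws B cells to the follicle edge, and Cd83, an activation marker, were the lower genes of the germinal centre list, with ratios of -4.61 and -2.14. Of the antibody constant genes, Ighg2b, which marks switched cells, stood at 1174 and 84.3 CPM (3.80), and Ighm, the unswitched form, at 634 and 1930.4 CPM (-1.61). Myc was lower as well, at 23.8 and 154 CPM (-2.69). Plasma cell markers moved with these genes. Their 10 genes summed to 2468 CPM in dividing and 1229 CPM in non-dividing B-like barcodes, with Sdc1 and Tnfrsf17 at 0 in dividing ones, and 4 of 6 that passed the filter were higher, led by Eaf2 (4.54) and Jchain (2.24). Their part in the result was not tested.

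Counted barcode by barcode, the 32 dividing B-like barcodes held a median of 9 of the 12 germinal centre genes (3 to 12), against 2 (0 to 11) in non-dividing ones, and after thinning to 2000 UMIs the medians were 4 and 2. Of the 10 naive and memory genes they held a median of 3 (0 to 7), against 7 (0 to 10), and 1 and 5 after thinning. The groups overlapped in both counts, so some non-dividing B-like barcodes also held most germinal centre genes. T cell markers summed to 446 CPM in dividing and 201 CPM in non-dividing B-like barcodes, with medians of 1 and 0 UMIs per barcode. Of the 244 such UMIs, 137 lay in 1 dividing barcode, and 7 of 8 T markers that passed the filter were higher (median 2.32). Without the barcode richest in each, the ratio was 0.05 for Cd3e, 1.84 for Cd3g and 1.29 for Cd3d, other chains of the T cell receptor complex. The part of T cell RNA in the other differences was not tested. Dissociation stress genes, which tissue digestion induces, were lower in 13 of 14 (-3.06), and their part in the other differences was not tested.

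**Figure D5:**
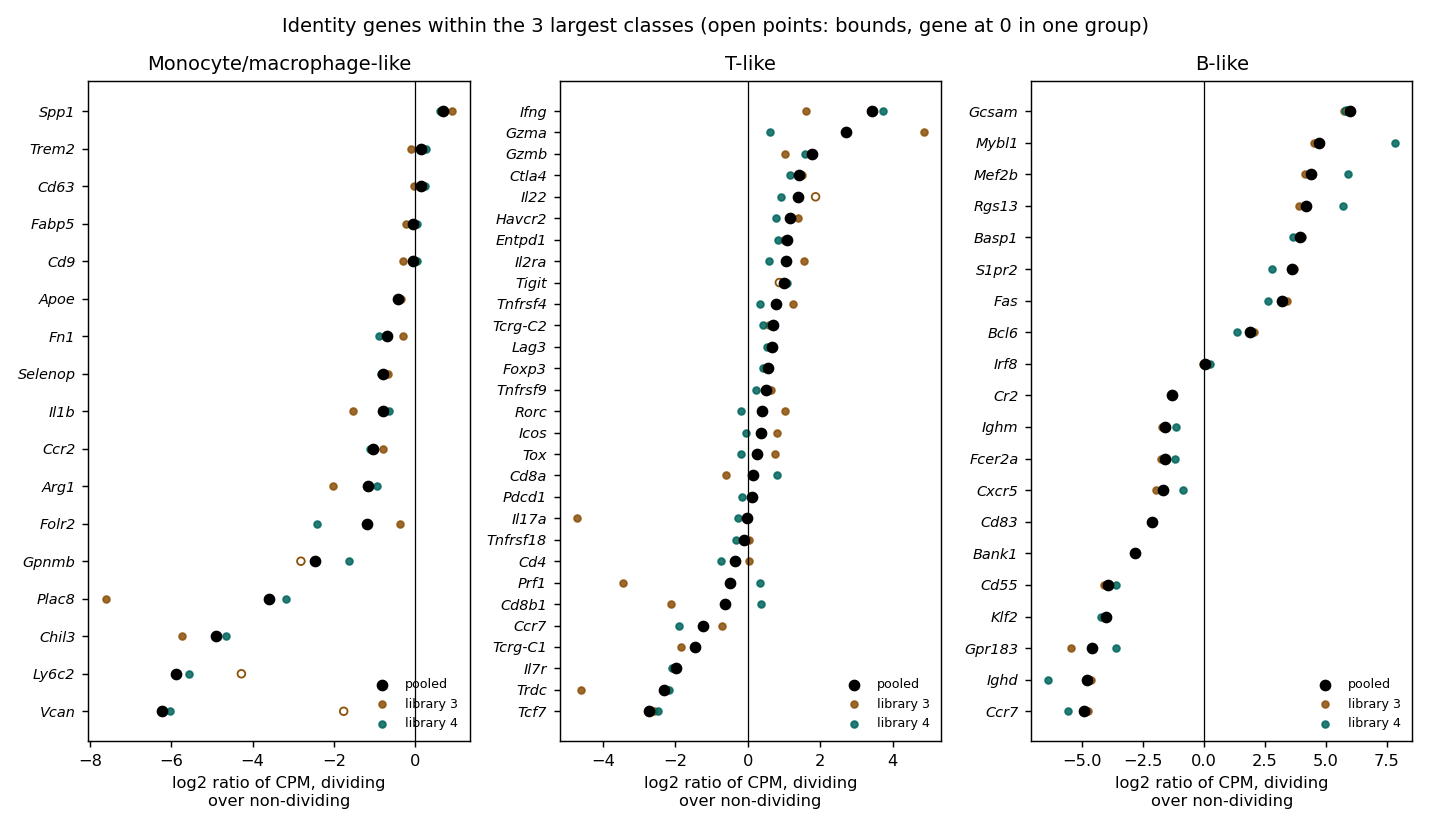
Log2 ratio of CPM (dividing over non-dividing) of identity list genes, leaving out those not reported here, within the monocyte/macrophage-like, T-like and B-like classes, pooled (black) and in libraries 3 and 4 alone (coloured). Open points are bounds set with 3 counts, where a gene had 0 UMIs in one group of that library, as for Vcan and Ly6c2 in library 3. Monocyte genes (Ly6c2 at -5.88), resting T genes (Tcf7 at -2.72) and naive B genes (Ighd at -4.82) lie to the left, and germinal centre genes (Mef2b at 4.38) lie to the right.

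Stress and interferon genes were lower over all members as well. Of 13 interferon-stimulated genes 9 were lower (median -1.31), against 6.04% of all genes, among them Isg15, a ubiquitin-like antiviral protein, at 104 CPM in dividing and 316 CPM in non-dividing barcodes (-1.61). Of 14 dissociation stress genes 5 were lower (-0.81). Fewer cells of a type and less RNA per cell cannot be told apart in these sums over mixed barcodes.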

How the data were processed

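Cells from digested AOM/DSS colon tumours were sorted and captured with a 10x 3′ V3 kit, per the labels' protocols. Per the submitters' processing notes, Cell Ranger 3.0.2 and the mm10 build were used, and what the authors deposited are unnormalized UMI counts. The gene annotation is not given in the labels. The counts form 1 matrix of 31053 genes and 18026 barcodes (129529250 UMIs) with 4 suffixes that no source used here ties to the 4 labelled samples, so no sample was compared and no p-value computed. No column of per-sample values was left unused (0 such columns).

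Kept barcodes (14198) had 594 in library 1, 1706 in library 2, 4516 in library 3 and 7382 in library 4, with median depths of 4507, 3390.5, 4932.5 and 5177 UMIs. Counts were summed over dividing and over non-dividing barcodes and scaled to CPM. Genes with a mean of at least 5 CPM over both groups were compared by the log2 ratio with no pseudocount, with an exact conditional binomial 95% interval, and called at 2-fold. A gene at 0 in one group takes 3 counts as a bound. Shares carry exact binomial (Clopper-Pearson) 95% intervals, and intervals and bounds cover counting error only. Thinning drew 2000 UMIs per barcode, which left out 2 dividing and 1081 non-dividing barcodes, with a depth of 5000 as an alternative.

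A class needed at least 3 genes and 30% of a marker panel, and a lead of 15 percentage points over the next panel. This rule was written with the data in view, and the members and gene lists were chosen with earlier results of these data known. Scrublet (scanpy 1.11.5, expected rate 6%) marked 10 barcodes (0.0704%), too few to have worked, and none was removed from the main results. Named genes were the lineage and rule genes, Egfr, the 12 highest and 12 lowest ratios with at least 50 UMIs seen or expected, the highest and lowest 5 per class outside the cycle lists, the genes detected most like Mki67 and Top2a, and the extremes and examples of fixed lists. The B-like class, below the size of 50 dividing barcodes set for class comparisons, was added after its values were seen. Some list genes are counted with their list but not reported by name here. The ratio step was tested on simulated data. Analyses ran in Python 3.11.15 with numpy 2.4.6, scipy 1.17.1 and pandas 2.3.3. Alternatives covered the filters, the rule, the libraries, depth, doublets, pseudocounts, class rules and class mix.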

Additional observations from a re-analysis of the deposited data

How the results depend on the processing

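No paired analysis was possible because each labelled group holds 1 sample and no barcode is tied to a sample. Of 11160 values recomputed for 671 results under 21 alternatives, 10604 were labelled the same, 316 fell inside 2-fold, 133 passed it, 96 moved and 11 reversed. Shares inside their interval and gene counts within a set fold limit were labelled the same. Ratios and medians past 2-fold were the same when they stayed past it in that direction. Those inside 2-fold were the same unless they passed it in their own direction, so sign changes there are not among the reversals. The MHC class II median in T-like barcodes, -0.64, for example ran up to 0.85. The cause of the changes was not tested unless the alternative itself gives it (fewer barcodes, fewer genes, less depth).

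With at least 2 UMIs each of Mki67 and Top2a, 2.01% of Ptprc-positive barcodes were dividing, 3.76% of monocyte/macrophage-like and 3.002% of T-like ones, 560 genes were lower in monocyte/macrophage-like barcodes, and the state list median there was -1.05. Iglc1 (2.53) turned to -2.55, and Il22, which rests on 1 barcode, to -6.36 over all and -5.45 in T-like barcodes. With Mki67 or Top2a, the shares were 14.7%, 28.6%, 18.7% and, of B-like barcodes, 5.50%, and B-like barcodes were 5.02% of the group. Carriers were 8.93% for Flt3, 11.02% for Cd79a and 71.3% for Jchain. Higher and lower genes numbered 314 and 206 over all, 176 and 79 in monocyte/macrophage-like and 488 and 149 in T-like barcodes. Medians were 0.90 for nucleotide supply, 0.97 for condensin and cohesin and 0.76 for G1 genes. Cxcl9 (0.10), Ifit3 (0.10), Iglc2 (0.13), Hba-a2 (1.84), Hbb-bs (1.85) and Hba-a1 (2.12) reversed. With Epcam not used, 3.63% were dividing, Cd79a carriers were 25.5% and Iglc2 turned to 1.33. With at least 2000 UMIs, 3.50% were dividing.

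Without library 3, carriers were 67.3% for Lyz2, 10.8% for Flt3 and 9.42% for Cd79a, members were 38.6% monocyte/macrophage-like and 2.69% B-like, and 6.44% of T-like barcodes were dividing. Without library 4, 2.48% were dividing, carriers were 40.4% for C1qa, 42.3% for Lyz2, 23.1% for Flt3 and 39.4% for Cd79a, members were 20.2% monocyte/macrophage-like and 25% B-like, 4.81% of monocyte/macrophage-like and 2.72% of T-like barcodes were dividing, 801 genes were lower in the monocyte/macrophage-like class, the quiescence median was -1.04 and Iglc1 turned to -2.85.

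Thinned to 2000 UMIs, 1.32% were dividing, with 1.65, 2.35 and 1.05% of monocyte/macrophage-like, T-like and B-like barcodes. Among members set on all UMIs, carriers after thinning were 43.2% for C1qa, 44.1% for Lyz2, 4.01% for Flt3, 23.5% for Cd3e, 14.5% for Cd79a, 28.1% for Jchain and 0% for Siglech. Higher genes numbered 1723 over all and 1219 in monocyte/macrophage-like barcodes, where 844 were lower. Thinned to 5000 UMIs, the class shares were 3.19, 5.53 and 8.67%, and carriers were 45.5% for C1qa, 52.5% for Lyz2, 9.30% for Flt3, 41.2% for Jchain and 0% for Siglech. With 2 UMIs needed of a lineage gene, carriers were 41.4, 48.5, 9.20, 52.1 and 0% for the same genes. With 10 CPM added, higher and lower genes numbered 476 and 331 over all, 286 and 122 in monocyte/macrophage-like and 550 and 224 in T-like barcodes, and the G1 median was 0.87. With a mean of at least 20 CPM they numbered 510 and 362, 242 and 150, and 616 and 281, and the G1 median was 0.51. With a mean of at least 1 CPM, 912 genes were lower over all, 905 were higher and 727 lower in monocyte/macrophage-like barcodes, and 1264 were lower in T-like ones. Weighted to the class shares of the dividing barcodes, 341 genes were lower over all. Depth limits every share of carriers, and the small classes rest on 9 or fewer dividing barcodes.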
